A study of Mus musculus with 9 samples.

Results

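The data described here compare 2 forms of EBF1, the full-length transcription factor (EBF1wt) and a form without its C-terminal domain (EBF1ΔC). The cells had been treated to delete their own Ebf1 gene, and the values here do not check that deletion. Samples were chosen by their titles: 3 named for the pmys-EBF1ΔC-IRES-GFP vector against 3 named for the pmys-EBF1wt-IRES-GFP vector, 6 of the 9 arrays of the series. The cells were pro-B cells of the C57Bl/6 background transformed with the Abelson murine leukemia virus (A-MuLV), which grow without feeder cells. Their genotype, Ebf1 fl/fl with RERTCre, makes Ebf1 removable by a Cre recombinase that 4-hydroxytamoxifen activates. Both compared groups received their retroviral vector, 2 µM 4-hydroxytamoxifen 24 h later, a sort for GFP 5 days after that, and more than 2 further weeks of culture. The remaining 3 arrays, Mock, came from mock-transduced cells of the same genotype harvested 4 days after tamoxifen and are used here for the spread and as a level. The labels name neither the first and last residue of the removed domain nor separate cultures behind the replicates, so the p-values may measure a spread that is partly technical. For EBF1wt replicate 3, tamoxifen stands in the description but not in the source name.

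EBF1 is a DNA-binding protein that specifies the B lineage. It binds as a dimer to a palindromic DNA sequence through its N-terminal domain, dimerises through a helix-loop-helix region, and carries at its C-terminus a stretch rich in serine and threonine known for transactivation. Its known target genes in early B cells include those of the surrogate light chain (Igll1, Vpreb1) and of the B-cell receptor signalling subunits (Cd79a, Cd79b).

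Labelled RNA was read in 1 colour on Agilent mouse arrays with 41174 probes for transcripts. The share of spots well above background was 50.5% to 51.0% with EBF1wt and 51.3% to 53.3% with EBF1ΔC. Values are the log2 signal relative to the 75th percentile of the array, so that 0 is that percentile, and differences are EBF1ΔC minus EBF1wt. The number of arrays limits the precision. Mock arrays lay on slides of their own and were scanned on another day. Mock cells were also harvested 4 days after tamoxifen, without the more than 2 weeks of culture after the sort. For levels set beside Mock, the group and the slide, scan or time in culture therefore cannot be told apart. Both groups were present on 2 slides: EBF1wt replicate 3 shared one with EBF1ΔC replicate 1, and EBF1wt replicate 2 shared the other with EBF1ΔC replicate 3. The latter 2 arrays stood apart: their weights, which limma sets by how well an array fits its group, were 0.364 and 0.491, against 0.723 to 1.71 for the other 7. Of 14 pro-B markers, every EBF1wt and EBF1ΔC array had 12 well above background. Kit was so on none, and Rag2 on 1 EBF1ΔC array.

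Cells with EBF1ΔC had far lower Asb2, Ly6d, Cd72, Galnt14 and Col26a1 than cells with full-length EBF1. They had far higher Cox6a2, lysozyme genes, and H2-Aa and H2-Eb1 of MHC class II. The calls of the lysozyme genes were lost without some single arrays. Most described EBF1 targets differed by less than 2-fold. Of 11245 genes tested, 324 (2.88%) were called, meaning a limma adjusted p under 0.05 and a difference of at least 2-fold: 165 (1.47%) were higher in EBF1ΔC and 159 (1.41%) lower. In bulk RNA, fewer cells with a transcript and less of it per cell cannot be told apart. The adjusted p alone was passed by 1235 genes (11.0%), the groups did not overlap for 3597 (32.0%), and 96.3% of tested genes lay within 2-fold. All 324 called genes were among those without overlap, so a lack of overlap does not set 1 called gene apart from another. The median difference of all tested genes was -0.009.

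Of 10809 genes well above background on all 6 arrays, 219 (2.03%) were called. Of the 165 higher genes, 106 were so measured, and 34 were above background on no EBF1wt array. Of the 159 lower genes, 113 were measured on all 6 arrays and 27 were above background on no EBF1ΔC array. At least 4-fold were 49 of the higher and 50 of the lower genes, and at least 8-fold 12 and 25. At least 2-fold within each of the slides that held both groups were 117 of the higher and 111 of the lower genes. With slide as a block in the fit of all 9 arrays, 210 genes were called (109 higher, 101 lower), 182 of them among the 324. Without both arrays of the shared slide that stood apart, 142 genes were called higher and 146 lower.

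**Figure D1:**
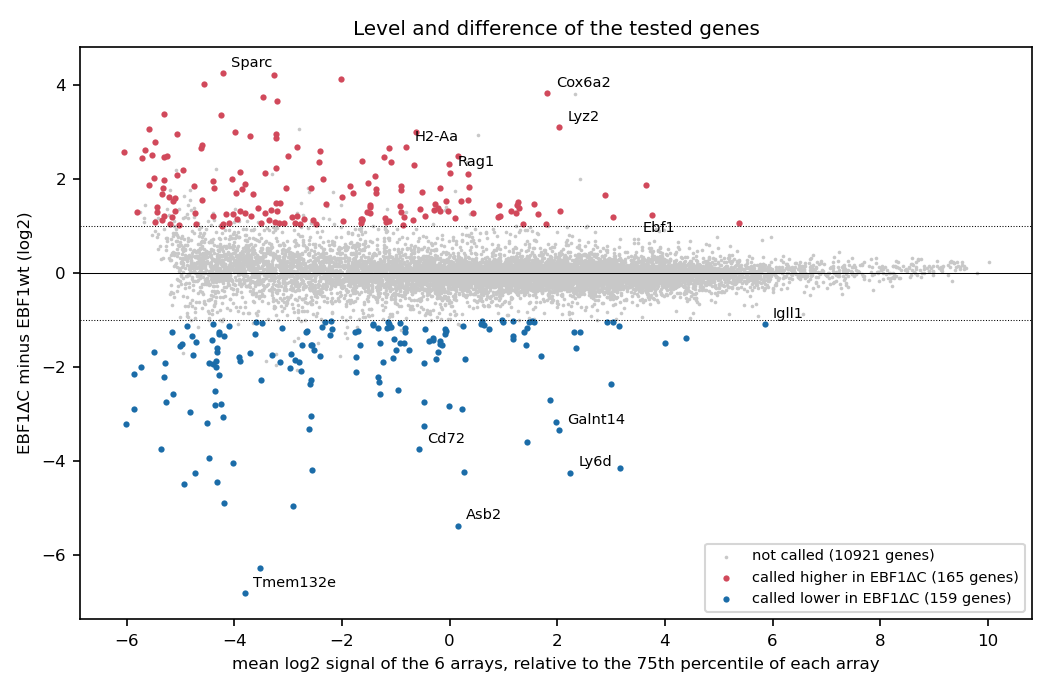
Each point is 1 of the 11245 tested genes. The horizontal axis is its mean log2 signal over the 6 arrays (0 is an array's 75th percentile), the vertical axis the log2 difference EBF1ΔC minus EBF1wt, and dotted lines mark 2-fold. Called genes (165 higher in red, 159 lower in blue) lie below a mean signal of 6, the named genes at the bottom include Asb2, and Ebf1 lies between the dotted lines.

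Ebf1 itself was read by a probe for its mRNA at chromosome 11, 44818365 to 44818424 (mm9). Its signal was 3.17, 2.87 and 3.16 on EBF1wt arrays 1 to 3 and 3.81, 3.74 and 3.85 on EBF1ΔC arrays. The groups did not overlap, and every EBF1ΔC array was higher. The difference was 0.74 log2 (SE 0.14, limma adjusted p = 0.0135), short of 2-fold, and 0.65 and 0.99 within the 2 shared slides. Mock arrays gave 1.45 ± 0.28 (SD, n = 3). A second Ebf1 probe was well above background on all 3 Mock arrays, at -3.03 to -2.32, and on no EBF1wt or EBF1ΔC array. Whether the first probe reads the exons that Cre removes, or the vector's transcript, is not known, so the value checks neither the deletion nor the dose of the vector. The part of this Ebf1 difference in the differences below was not tested.

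Of 17 described EBF1 target genes, 15 were tested. None was called higher and 2 were called lower, a share of 13.3% against 2.88% of all tested genes. At an unadjusted p under 0.05 (limma), 2 were higher and 5 lower. The adjusted p was passed by 3 lower and 0 higher targets, beside 11.0% of all tested genes in either direction. The median difference was -0.12. The 2 called were Cd72, an inhibitory receptor of B cells, and Igll1, the lambda5 chain of the surrogate light chain.

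Cd72 gave 1.23, 1.54 and 1.15 on EBF1wt arrays and -2.27, -2.22 and -2.81 on EBF1ΔC arrays. It fell by 3.74 log2 (SE 0.16, limma adjusted p = 5.33e-06), and a second probe of the gene gave -3.59. All EBF1ΔC arrays lay far below all EBF1wt arrays, while Mock cells, which had no EBF1 vector, held 1.16 ± 0.08. Igll1 gave 6.44, 6.41 and 6.34 with EBF1wt and 5.24, 5.34 and 5.37 with EBF1ΔC. It fell by 1.08 (SE 0.12, limma adjusted p = 0.000919), and Mock lay at -0.57 ± 0.26, so both forms of EBF1 went with an Igll1 signal far above that of Mock. Averaging the probes of Igll1 ended its call (-0.79), since a dimmer probe gave -0.49.

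The other surrogate light chain genes changed less. Vpreb2 gave 5.94, 5.84 and 5.87 against 5.49, 5.64 and 5.59, a difference of -0.31 (limma adjusted p = 0.0604) with no overlap. Vpreb1 gave 8.68, 8.54 and 8.63 against 8.74, 8.78 and 8.60, and the groups overlapped. Cr2, the complement receptor of mature B cells, was at -2.82, -1.53 and -2.61 with EBF1wt and -3.58, -3.24 and -3.04 with EBF1ΔC. Its difference of -0.96 was not called (limma adjusted p = 0.0744), but was called when scaling to the median (-1.12) or without EBF1wt replicate 1 (-1.21).

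For 9 further targets the differences ran from -0.17 for Pax5, the B-lineage commitment factor, to 0.38 for Fcgr2b, an inhibitory Fc receptor (limma adjusted p = 0.0513), and none passed. Those of Cd79a (0.16), Cd79b (-0.12), Foxo1 (0.05), Pou2af1 (-0.13) and Blnk (0.26) lay within this range. A p that misses the threshold does not show equal levels.

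**Figure D2:**
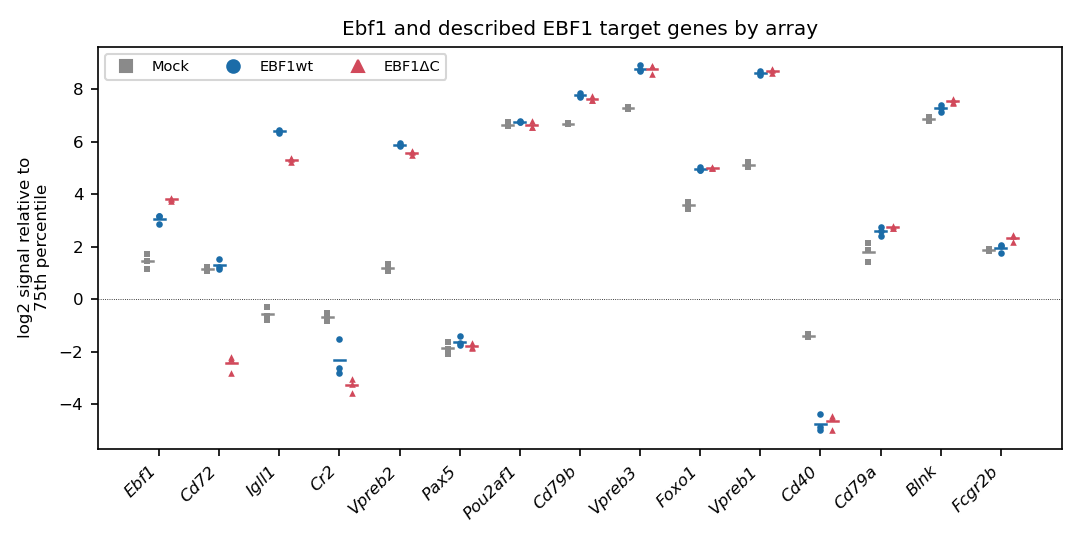
Log2 signal relative to the 75th percentile of the array for Ebf1 and 14 described EBF1 target genes, 1 point per array and a line at each group mean (grey squares Mock, blue circles EBF1wt, red triangles EBF1ΔC). Cd72 and Igll1 are the called targets: EBF1ΔC lies below EBF1wt for both. For Vpreb3 and Vpreb1 the 2 groups overlap.

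Among called genes measured on all 6 arrays, the 12 lowest in EBF1ΔC ran from Asb2 (-5.37) to Ell3 (-2.89). Asb2, which selects substrates for a ubiquitin ligase, gave 2.59, 3.26 and 2.68 with EBF1wt and -1.72, -2.15 and -3.72 with EBF1ΔC (SE 0.43, limma adjusted p = 0.000187). The groups were far apart, with EBF1ΔC replicate 3 the lowest; without that array the difference was -4.78. Ly6d, a surface protein of B-committed lymphoid progenitors, gave 4.64, 3.69 and 4.76 against 0.15, 0.31 and -0.11. It fell by 4.24 (SE 0.25, limma adjusted p = 3.26e-05) and its neighbour Lynx1, of the same protein family, fell by 1.78. Mock arrays held Asb2 at 1.87 ± 0.05 and Ly6d at 2.66 ± 0.12, above all EBF1ΔC arrays for both genes.

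Galnt14, an enzyme that starts O-linked glycosylation, was the most even of the low genes. Its signal was 3.70, 3.70 and 3.72 with EBF1wt and 0.35, 0.36 and 0.37 with EBF1ΔC, a difference of -3.35 (SE 0.07, limma adjusted p = 5.89e-08). Col26a1, a collagen gene, gave 2.33, 2.50 and 2.32 against -1.56, -1.76 and -2.21 (difference -4.22, SE 0.17). Of 12 tested collagen genes, Col26a1 and Col27a1 (-2.21) were called lower, against 1.41% of all tested genes, and the median of the family was 0.18. Slpi, a secreted inhibitor of leukocyte proteases, gave 4.89, 5.73 and 5.07 against 1.16, 1.84 and 0.26 (difference -4.15, SE 0.36), with the widest spread in EBF1ΔC. Ttll11, which adds glutamate chains to tubulin, gave 3.18, 3.36 and 3.15 against 0.22, 0.04 and -1.34 (difference -3.59, SE 0.36).

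Further down this range came Bhlha15 (-3.32), a transcription factor of secretory cells, Tnni2 (-3.26), fast skeletal troponin I, and Cd248 (-3.16), a surface protein known from stromal cells. A dimmer probe of Bhlha15 gave -0.54, with no call, so its probes disagreed. Pcbd1 (-3.05), an enzyme of pterin recycling, lost its call with slide as a block of 9 arrays (-3.44, limma adjusted p = 0.0914). Ell3, an elongation factor of RNA polymerase II, gave 1.98, 1.08 and 1.95 against -1.15, -1.25 and -1.25.

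Among genes with no EBF1ΔC array above background, the fold is a lower bound. Tmem40 was at least 34.4-fold lower (limma adjusted p = 0.000101). The bound of Tmem132e was close to it, at least 34.3-fold lower (limma adjusted p = 1.33e-05). Apbb1, an adaptor of the amyloid precursor protein, was at least 13.5-fold lower, Fetub, a secreted cystatin-like protein, at least 11.3-fold and Sytl3, of vesicle traffic, at least 10.6-fold. With slide as a block of 9 arrays the call of Sytl3 was lost (limma adjusted p = 0.0618). Mock arrays were also not well above background for these 5 genes, so of the 3 groups EBF1wt alone had them above background.

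The highest called gene measured on all 6 arrays was Cox6a2, the muscle and heart form of a cytochrome c oxidase subunit. It gave -0.24, -0.12 and 0.06 with EBF1wt and 3.76, 3.77 and 3.67 with EBF1ΔC, a difference of 3.83 (SE 0.09, limma adjusted p = 6.09e-08), and 3.97 ± 0.07 in Mock. The EBF1ΔC mean was close to that of the separately scanned Mock arrays, and EBF1wt lay below both. Of 14 tested cytochrome c oxidase genes it was the only 1 called (7.14% against 2.88% of all tested genes). The median of the list was 0.07.

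Lyz2 and Lyz1, adjacent lysozyme genes of near-identical sequence whose probes may share signal, came next. Lyz2 gave 1.41, -1.20 and 1.24 with EBF1wt and 3.94, 3.84 and 2.98 with EBF1ΔC (difference 3.10, SE 0.61, limma adjusted p = 0.0141). Lyz1 gave -1.10, -3.85 and -1.40 against 1.17, 1.14 and 0.34 (SE of the difference 0.61, limma adjusted p = 0.0165). For both genes EBF1wt replicate 2 was the lowest array, and without it the differences were 2.26 and 2.13. Both calls were lost without EBF1ΔC replicate 1 (2.92 and 2.85) or replicate 2 (2.97 and 2.87). They were also lost in a fit of only the 6 arrays compared (limma adjusted p = 0.0531 and 0.0613). With no filter on dim probes they were lost too (limma adjusted p = 0.0657 and 0.0736). Lyz2 and Lyz1 were the 2 called of 13 tested genes of a myeloid list, against 1.47% of all tested genes called higher. In that list 4 genes passed the adjusted p higher and 1 lower, beside 548 higher and 687 lower of all 11245 genes. Its median was 0.35, and 0.19 with the authors' values. In another set, of 8 myeloid markers, 6 (Csf1r, Itgam, Mpo, Elane, Adgre1, S100a8) were well above background on no EBF1wt or EBF1ΔC array. The summed linear signal of these markers, as multiples of the 75th percentile, was 0.506 to 2.73 in EBF1wt and 7.93 to 15.5 in EBF1ΔC, and without Lyz2 it was 0.0651 to 0.0749 against 0.0617 to 0.106.

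Of the other high genes, Rgs10, a regulator of G-protein signalling, was 2.69 higher and S100a4, a calcium-binding protein, 2.50. Il10ra, the interleukin 10 receptor, gave -0.77, -1.78 and -0.73 against 1.41, 1.53 and 1.28 (difference 2.50, SE 0.24, limma adjusted p = 0.000509). Tusc1, a candidate tumour suppressor, gave -2.26, -2.71 and -2.37 against -0.25, -0.04 and 0.93 (difference 2.66, SE 0.35) and was above background on no Mock array. Cbfa2t3, a corepressor of blood cells, and Tmem119, a membrane protein known from microglia, had EBF1wt replicate 2 far below the other EBF1wt arrays. Without it their differences were 1.65 in place of 2.46 and 1.72 in place of 2.38, and the Cbfa2t3 call was lost without any 1 EBF1ΔC array (2.27 to 2.59) and with slide as a block of 9 arrays (2.93, limma adjusted p = 0.126). Tmem119 lost its call without EBF1ΔC replicate 1 (2.26). Rgs10 lost its call with slide as a block of 9 arrays (3.23, limma adjusted p = 0.0947), as did S100a4 (2.66, limma adjusted p = 0.0778).

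With no EBF1wt array above background, Sparc, a matrix protein, was at least 9.33-fold higher in EBF1ΔC. It gave -2.21, -2.16 and -1.88 there (limma adjusted p = 0.00052). Epha2, an ephrin receptor, was at least 6.79-fold higher, Zfp831 at least 4.09-fold, Fam183b at least 4.04-fold and Pde4dip at least 3.28-fold. These bounds hold for the processed signal. With the authors' values the differences of Epha2 (0.84), Zfp831 (0.51), Fam183b (0.46) and Pde4dip (0.53) were below 2-fold, as were those of the last 3 with normexp background correction (0.62, 0.59 and 0.63). The call of Zfp831 was lost with slide as a block of 9 arrays (limma adjusted p = 0.0893) and without EBF1ΔC replicate 2 (2.62), and its difference shrank to 1.99 without EBF1wt replicate 2. Of 6 stromal markers, Col1a1, Col3a1, Pdgfrb and Lum were well above background on no EBF1wt or EBF1ΔC array. Col1a2 was so on 1 EBF1wt and 2 EBF1ΔC arrays, and Dcn on 1 of each. The summed signal of the 6 markers was 0.0666 to 0.0971 against 0.0686 to 0.136.

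**Figure D3:**
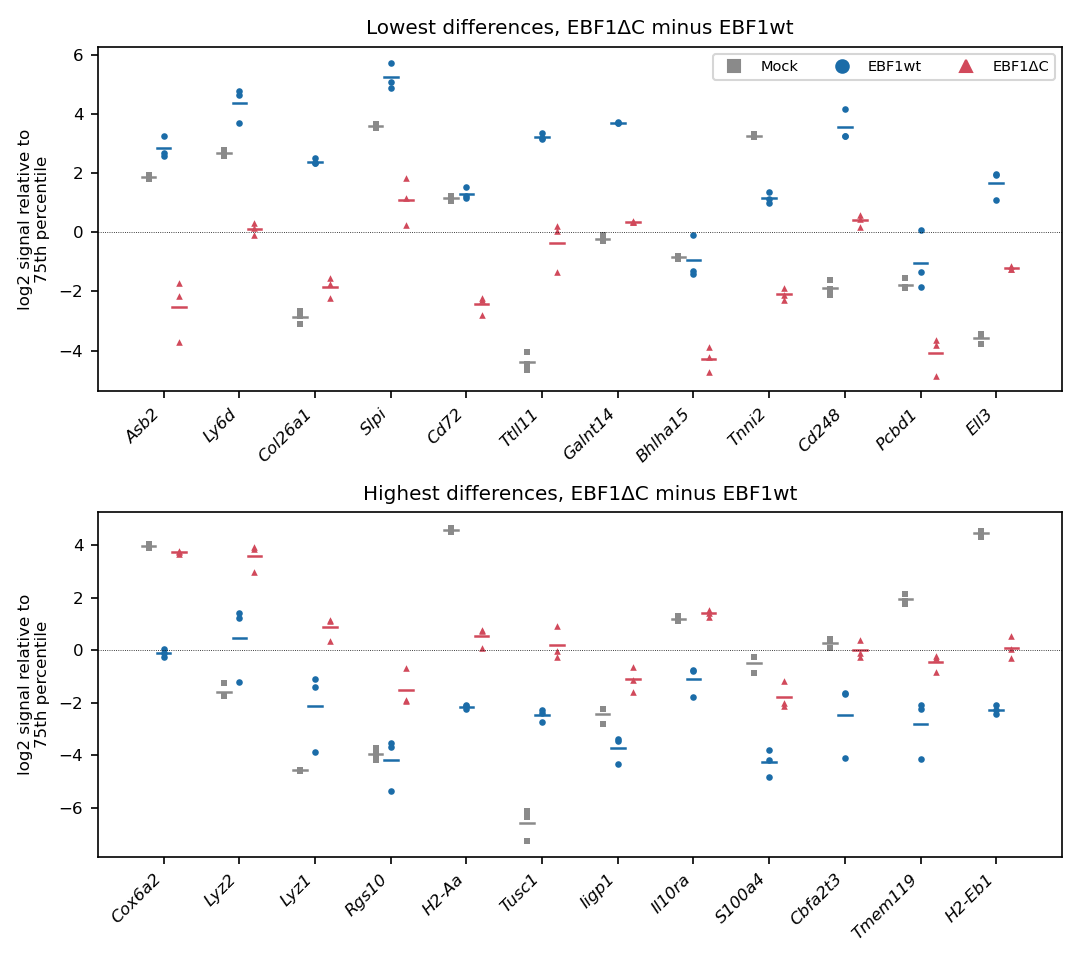
Log2 signal relative to the 75th percentile of the array for the 12 lowest (top) and 12 highest (bottom) differences among called genes measured on all 6 arrays, 1 point per array and a line at each group mean (grey squares Mock, blue circles EBF1wt, red triangles EBF1ΔC). EBF1wt and EBF1ΔC do not overlap for any of the 24 genes, as the choice of genes required. The low blue circle of Lyz2, Lyz1, Rgs10, Cbfa2t3 and Tmem119 is EBF1wt replicate 2.

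MHC class II genes present antigen to T cells, and Ciita is their transactivator. Of 15 tested genes of this pathway, 3 were called higher and 1 lower, 26.7% against the 2.88% of all genes. The median difference was 0.34, but 0.16 without EBF1wt replicate 2, 0.09 without both arrays of the slide that stood apart, and 0.11 with normexp background correction or the authors' values. H2-Aa gave -2.07, -2.10 and -2.24 with EBF1wt and 0.09, 0.75 and 0.78 with EBF1ΔC (difference 2.68, SE 0.17, limma adjusted p = 4.54e-05). H2-Eb1 gave -2.09, -2.27 and -2.44 against -0.30, 0.06 and 0.55 (difference 2.37, SE 0.19). Ciita gave -4.33, -4.55 and -4.17 against -2.36, -2.21 and -1.75 (difference 2.24, SE 0.16). As for every called gene, the groups did not overlap for these 3. Mock means were 4.58 for H2-Aa, 4.46 for H2-Eb1 and 2.42 for Ciita, above both EBF1 groups.

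Cd74 (0.91), the invariant chain, and H2-DMa (0.90), which helps load peptides, passed the adjusted p below 2-fold. H2-Ab1, the partner chain of H2-Aa, was at 0.34 (limma adjusted p = 0.0504). H2-Eb2 went the other way, with -2.55, -3.47 and -2.82 against -3.84, -4.04 and -4.15 (difference -1.06, SE 0.20, limma adjusted p = 0.0127). Leaving out EBF1wt replicate 1 (-0.87) or EBF1ΔC replicate 3 (-0.99) put it below 2-fold, as did slide as a block of 9 arrays (-0.85), normexp background correction (-0.46) and the authors' values (-0.43), so that the list then had no gene called lower. Ciita was below 2-fold with normexp background correction (0.83) and the authors' values (0.75). MHC class I genes had 0 calls among 19 tested (limma; 4 higher and 0 lower at an unadjusted p under 0.05), with H2-T23 (0.40) alone past the adjusted p.

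Surface receptors of pro-B cells split. Of 18 tested, 3 were called higher and 1, Ly6d, lower, against 1.47% and 1.41% of all tested genes, with a median of 0.05. Cd38, an enzyme on the surface of lymphocytes, gave -0.97, -1.03 and -1.04 against 0.39, 0.49 and 0.52 (difference 1.48, SE 0.11), and was even across the arrays of each group. Itgal, the integrin chain of LFA-1, was 1.71 higher (SE 0.30), and with slide as a block of 9 arrays it lost its call (2.05, limma adjusted p = 0.0648). Mature B cell markers, a list that shares a called gene with the first, had 2 of 16 called higher and 1 lower. These counts stand beside 1.47% and 1.41% of all tested genes, and the median was 0.05. In this list S1pr1, a receptor that guides lymphocyte exit, was 1.11 higher, and Tnfrsf13c, the BAFF receptor, was at -1.03. Without EBF1ΔC replicate 3 Tnfrsf13c missed 2-fold (-0.95), and scaling to the median put S1pr1 below 2-fold (0.95). Normexp background correction and the authors' values also put S1pr1 (0.61 and 0.56) and Tnfrsf13c (-0.93 and -0.96) below 2-fold. With slide as a block of 9 arrays S1pr1 lost its call (limma adjusted p = 0.064).

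Genes of V(D)J recombination, which assembles antigen receptor genes, had 2 of 13 members called higher, against 1.47% of all tested genes, with a median of 0.01. With slide as a block of 9 arrays 0 members passed the adjusted p (limma; 2 higher and 1 lower at an unadjusted p under 0.05). Rag1, a subunit of the recombinase, gave -0.33, -2.23 and -0.64 with EBF1wt and 0.82, 0.84 and 1.56 with EBF1ΔC. Its difference of 2.14 (SE 0.46, limma adjusted p = 0.0205) was 1.56 without EBF1wt replicate 2, and the call was lost without EBF1ΔC replicate 2 (2.26) or 3 (1.90) and with slide as a block of 9 arrays (2.62, limma adjusted p = 0.112). Dntt, which adds bases at the joins, gave 0.85, 0.27 and 0.43 against 1.68, 1.57 and 2.82 (difference 1.51, SE 0.31, limma adjusted p = 0.0159). Without both arrays of the slide that stood apart it missed 2-fold (0.98), and with the slide block it lost its call (limma adjusted p = 0.064). Polm, a polymerase of end joining, passed the adjusted p in the other direction (-0.70).

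Interferon response genes act against viruses. Of 29 tested, 12 passed the adjusted p higher and 0 lower, against 548 higher and 687 lower among all tested genes, and the median was 0.36. The 3 called were Rtp4, a chaperone of receptor transport (1.86, SE 0.31), Zbp1, a sensor of nucleic acids (1.35), and Usp18, which restrains interferon signalling (1.25). Among all tested genes 1.47% were called higher. Usp18 missed 2-fold with normexp background correction (0.37) and the authors' values (0.34), and Zbp1 with the former (0.99). The list then had 1 called gene with normexp background correction and 2 with the authors' values. Rtp4 gave -1.45, -2.61 and -1.46 against -0.11, -0.21 and 0.39, with EBF1wt replicate 2 the lowest. Below 2-fold passed Irf7 (0.93), Isg15 (0.86) and Irf1 (0.73), factors and effectors of the pathway.

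Interferon-inducible GTPases, which attack intracellular microbes, had 10 of 15 members past the adjusted p higher and 1 lower (Gbp8, -0.43), with a median of 0.51. Of all 11245 tested genes, 548 passed higher and 687 lower. The 3 called GTPases, all higher, stand beside 1.47% of all tested genes called higher. Iigp1 gave -3.44, -4.34 and -3.36 against -1.57, -1.14 and -0.62 (difference 2.60, SE 0.31, limma adjusted p = 0.00134). Tgtp1 (1.45, with EBF1wt replicate 3 missing because its spot was an outlier) and Gbp2 (1.24) were also called. Without EBF1wt replicate 2 both missed 2-fold (0.93 and 0.94), and without EBF1ΔC replicate 2 Tgtp1 lost its call (limma adjusted p = 0.054). In these lists the arrays of the shared slide that stood apart bore on the calls. Without both, Rtp4 and Iigp1 alone were called, and the medians were 0.32 and 0.38. With slide as a block of 9 arrays 0 interferon response genes passed the adjusted p, and their median was 0.53. At an unadjusted p under 0.05 (limma), 13 of them were higher and 0 lower. With that block 1 GTPase, Tgtp1, passed. Iigp1 (2.76, limma adjusted p = 0.0681) and Gbp2 (1.52, limma adjusted p = 0.0545) lost their calls.

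Cytokine receptor genes had 3 of 34 members called, all higher, against 1.47% of all tested genes, with a median of 0.11. With normexp background correction and with the authors' values 1 was called. Il4ra, the interleukin 4 receptor, gave -2.10, -2.13 and -2.30 against -0.91, -0.69 and -0.73 (SE of the difference 0.09, limma adjusted p = 4.3e-05). Il21r, its neighbour on chromosome 7, was 1.47 higher (SE 0.15), and Il10ra is described above. As for every called gene, the groups did not overlap. Normexp background correction put Il4ra (0.88) and Il21r (0.78) below 2-fold. NF-κB genes had 2 of 20 called higher, again beside 1.47% of all genes: Bcl3, a nuclear cofactor (1.30), and Lta, lymphotoxin (1.19). Both missed 2-fold with normexp background correction (0.88 and 0.82) and the authors' values (0.88 and 0.80). The inflammatory caspases Casp4 (1.33) and Casp1 (1.19) were the 2 called of 24 apoptosis regulators, beside 1.47% of all genes called higher. Casp4 lost its call with slide as a block of 9 arrays (limma adjusted p = 0.0544).

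Myc, a growth regulator, was lower in EBF1ΔC, with 4.48, 5.32 and 4.41 against 3.20, 3.39 and 3.16. The difference was -1.49 (SE 0.22, limma adjusted p = 0.00363), and 2 further probes gave -1.47 and -1.45. Of 39 tested genes of MYC and ribosome biogenesis, 10 passed the adjusted p lower and 0 higher, beside 687 lower of all 11245 genes, the median was -0.29, and Myc was the only 1 called. Among those below 2-fold were Srm, an enzyme of spermidine synthesis (-0.66), and Polr1b, a subunit of RNA polymerase I (-0.65). Without both arrays of the slide that stood apart 6 passed lower and the median was -0.20, without EBF1wt replicate 2 alone 5 passed lower, and with slide as a block of 9 arrays 1 did. Genes of glycolysis and hypoxia had 6 of 26 past the adjusted p lower and 0 higher (median -0.28), beside 687 lower of all 11245 genes. Without EBF1wt replicate 2, alone or with EBF1ΔC replicate 3, 2 passed lower, and with slide as a block of 9 arrays 0 did (limma; 9 lower and 1 higher at an unadjusted p under 0.05). Bnip3, a mitophagy receptor, was the only 1 called (-1.04). It missed 2-fold without EBF1wt replicate 2 (-0.80) or EBF1ΔC replicate 3 (-0.93), and lost its call with the slide block (limma adjusted p = 0.149).

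Plasma cell and secretory genes had 3 of 24 members called, all lower, against 1.41% of all tested genes, with a median of -0.16. With normexp background correction and with the authors' values 1 was called. Besides Bhlha15 these were Jchain, the joining chain of secreted antibodies (-1.29, SE 0.23), and Fkbp11, a chaperone of the secretory pathway (-1.10). Irf4, a factor of plasma cells and pre-B cells, passed the adjusted p at -0.95. Fkbp11 missed 2-fold without EBF1wt replicate 2 (-0.85) or EBF1ΔC replicate 1 (-0.99), and normexp background correction put Jchain at -0.50. Immediate early genes split, with Jun 1.18 higher and Nr4a1 at -1.48; Nr4a1 lost its call without EBF1ΔC replicate 2 (-1.43, limma adjusted p = 0.0517) and with slide as a block of 9 arrays (limma adjusted p = 0.071).

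Proliferation and chromatin lists held no called gene in limma. DNA replication had 0 of 39 called (5 lower and 0 higher at an unadjusted p under 0.05), mitosis 0 of 40 (4 lower, 1 higher), chromatin remodelling and DNA methylation 0 of 38 (2 lower, 1 higher), and their medians lay between -0.05 and 0. Pre-B and B-cell receptor signalling had 0 of 22 (5 lower and 5 higher), cholesterol and fatty acid synthesis 0 of 33 (8 lower, 0 higher), and transcription factors of other lineages 0 of 13 (4 higher, 0 lower). Id2, an inhibitor of E proteins in the last list, stood just short of 2-fold at 0.99. The cholesterol and fatty acid counts rested on EBF1wt replicate 2. Without it 5 genes of that list were lower and 4 higher at an unadjusted p under 0.05 (limma), and the median was 0.05 in place of -0.07. Single members were called lower in 2 lists, beside 1.41% of all tested genes. Car2, a carbonic anhydrase of red cells (-2.35, SE 0.16), was 1 of 5 tested erythroid and megakaryocytic genes. Slamf1, a marker of stem cells (at least 2.46-fold lower), was 1 of 10 stem and progenitor genes. Of 8 tested T, NK and innate lymphoid genes, 2 were called higher, Klrd1 (1.32) and Lck (1.28), against 1.47% of all tested genes. The median of that list was 0.44. Lck missed 2-fold without EBF1wt replicate 2 (0.89) and the adjusted p without EBF1ΔC replicate 1 (1.28) or 2 (1.26). With slide as a block of 9 arrays neither Klrd1 (limma adjusted p = 0.0731) nor Lck (limma adjusted p = 0.0635) was called, and Slamf1 was at -0.35 with normexp background correction. In another set, of 8 T and NK markers, Cd3e was well above background on every array. In that set 5 were so on no EBF1wt or EBF1ΔC array. Its summed signal was 0.141 to 0.171 in EBF1wt and 0.121 to 0.162 in EBF1ΔC.

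**Figure D4:**
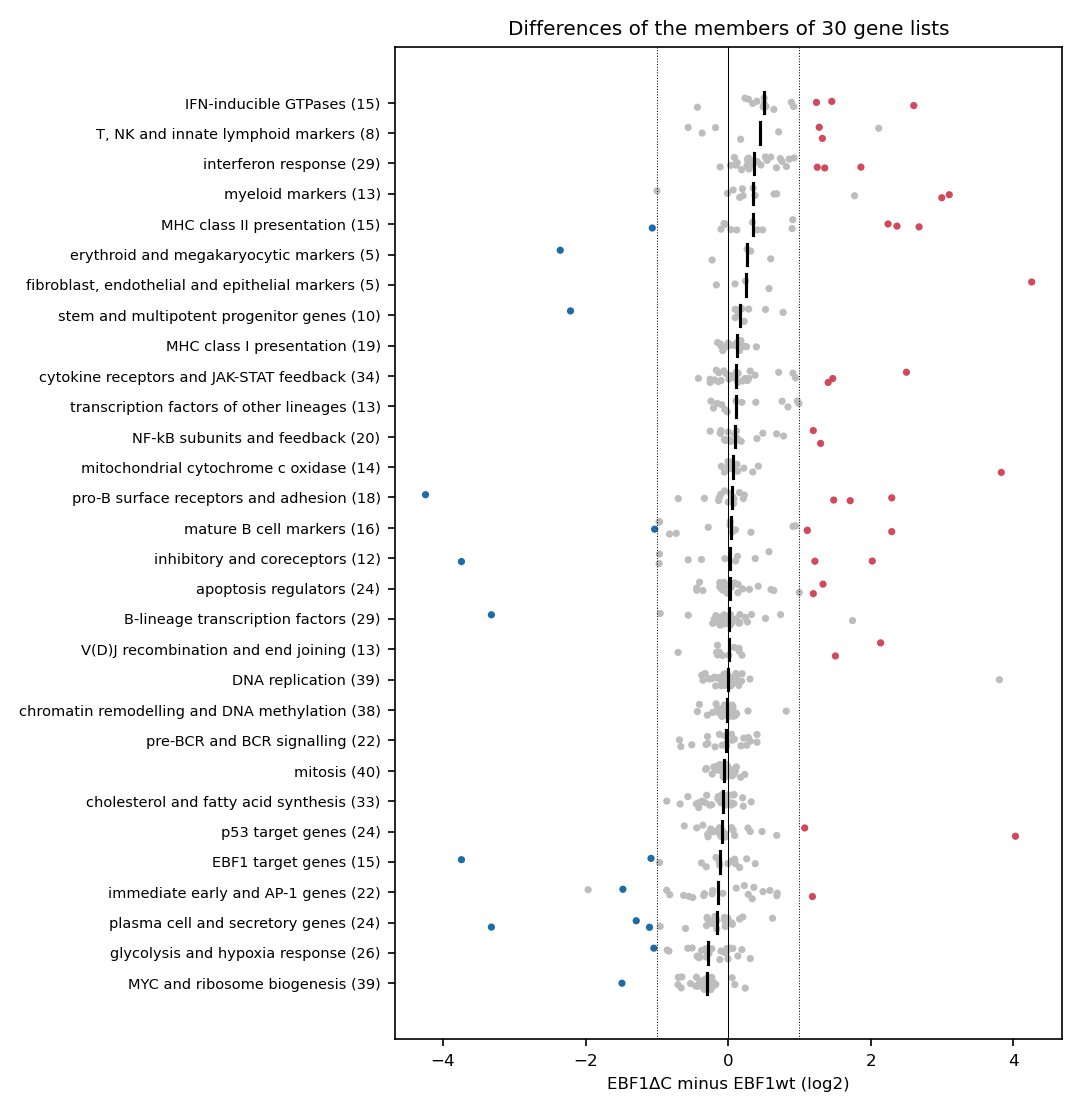
Each point is a tested member of 1 of 30 gene lists (number tested in brackets), placed on the horizontal axis by its log2 difference EBF1ΔC minus EBF1wt; black bars are list medians, dotted lines mark 2-fold, and red and blue points are called higher and lower. The interferon-inducible GTPases have a median of 0.51 and MYC and ribosome biogenesis one of -0.29, while most members of every list lie between the dotted lines.

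Called genes often lay near another gene called in the same direction. Of the 165 higher genes, 27 (16.4%) had one within 100 kb, against 3.50% of the other tested genes that had a higher gene so near, and of the 159 lower genes 18 (11.3%, against 3.54%). Groups of 3 lay together on chromosome 10 (Tle5, Tle2 and Tle6, of a corepressor family), chromosome 2 (Kcns1, Wfdc5 and Wfdc12) and chromosome 4 (Padi2, Atp13a2 and Mfap2). Atp13a2, a lysosomal transporter, gave 5.08, 4.58 and 4.87 against 5.90, 5.84 and 6.01 (difference 1.07), and Padi2, which converts arginine to citrulline, was 1.56 higher. Without EBF1wt replicate 2 Atp13a2 (0.94) and Tle6 (0.99) missed 2-fold, as did Tle5 (0.75) and Kcns1 (0.85). The calls of Kcns1, Tle5, Wfdc5 and Wfdc12 were also lost without other single arrays: leaving out 1 array gave 0.75 to 1.46 for Tle5, 0.85 to 1.57 for Kcns1, 1.29 to 1.98 for Wfdc5 and 1.00 to 1.63 for Wfdc12. With normexp background correction and with the authors' values Tle5, Tle2, Tle6, Kcns1, Wfdc5, Wfdc12 and Mfap2 all lost their calls, so none of these groups of 3 was left, and with slide as a block of 9 arrays Tle5, Tle6, Kcns1, Wfdc5 and Wfdc12 did. Pairs of the lower genes included Asb2 with Otub2 (-2.74), Ttll11 with Dab2ip (-2.71) and Car2 with Car3 (-1.51). In pairs of similar genes, such as Tle2 and Tle6, Lyz1 and Lyz2 or Car2 and Car3, the probes may share signal.

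The palindromic core of the sequence that EBF1 binds, CCCNNGGG, reads the same on both strands. It was searched in RefSeq promoters (GRCm38.p6) from 250 bases before to 50 after each gene's start, counting a gene if any of its promoters held it. Promoters were matched for 126 of the 159 lower genes (79.2%), 121 of the 165 higher genes (73.3%) and 8918 of the 11245 tested genes (79.3%). Because fewer than 80% of each set had one, the check is void as a comparison, and the counts are only a description. The core stood in 50 lower genes (39.7%), 21 higher genes (17.4%) and 1838 tested genes (20.6%). Of all 27025 genes with a promoter, 15.4% held it. The same letters in another order, GGGNNCCC, searched after the first counts were seen, stood in 17.5%, 17.4% and 17.4%. Among all genes with a promoter the share was 13.5%. A longer palindrome has T before the core and A after it. It stood in 6 lower genes (4.76%), 1 higher gene (0.826%), 108 tested genes (1.21%) and 1.06% of all genes with a promoter. A match is not a measured binding site.

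The sequences below, chosen after the values were seen, show these matches in capitals, 5′ to 3′ on the strand of the gene. They are 4 of the 6 lower genes with the longer palindrome (1700003F12Rik, Ninl, Sgk1 and Neil1), the target gene Foxo1, which has it and was not called (0.05), and 3 lower genes with the core alone (Elfn1, Slamf1 and Igll1).
1700003F12Rik (difference -1.99; chr2:154548745-154548804, plus strand): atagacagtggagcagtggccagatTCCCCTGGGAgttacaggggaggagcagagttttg
Ninl (-1.74; chr2:151009399-151009449, minus strand): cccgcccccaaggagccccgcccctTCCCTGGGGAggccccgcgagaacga
Sgk1 (-1.44; chr10:21881948-21882007, plus strand): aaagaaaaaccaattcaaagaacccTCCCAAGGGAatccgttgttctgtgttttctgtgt
Neil1 (-1.33; chr9:57148452-57148511, minus strand): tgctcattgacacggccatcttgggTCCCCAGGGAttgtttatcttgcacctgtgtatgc
Foxo1 (0.05; chr3:52268220-52268279, plus strand): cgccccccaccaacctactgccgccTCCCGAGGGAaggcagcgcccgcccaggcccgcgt
Elfn1 (-4.19; chr5:139907754-139907811, plus strand): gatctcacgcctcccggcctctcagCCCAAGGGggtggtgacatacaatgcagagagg
Slamf1 (-2.21; chr1:171766931-171766988, plus strand): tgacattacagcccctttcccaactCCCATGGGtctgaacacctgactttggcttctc
Igll1 (-1.08; chr16:16864184-16864235, minus strand): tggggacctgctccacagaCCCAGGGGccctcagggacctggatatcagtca
The palindrome of Sgk1, a kinase of ion transport, starts 211 bases before the gene's start, that of Neil1, a DNA repair glycosylase, 181 bases, and that of Foxo1, a transcription factor of B-cell development, 92 bases. Sgk1 and Neil1 were called lower and Foxo1 was not, so the same palindrome stood before genes of both kinds.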

How the data were processed

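Cy3-labelled RNA of 9 samples was hybridised to Agilent 4x44K mouse arrays. The intensity used, gProcessedSignal, is per the file headers a background-subtracted, detrended spot signal, not normalized between arrays; headers name Feature Extraction 10.5.1.1 and mm9 positions, the submitters' processing notes version 9.1. The authors also deposited log2 values of unstated normalization, centred alike (array medians 6.735 to 6.742), which correlated at 0.9991 to 0.9993 with normexp-corrected, quantile-normalized signals and served as an alternative. No array had a saturated spot, and 73 to 163 outlier spots per array were left out.

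Spots of a probe were averaged on the log2 scale after subtracting the array's 75th percentile. Probes well above background on all 3 arrays of EBF1wt or of EBF1ΔC were kept (20597); names came from RefSeq by accession (27580 of all probes), symbol (5413) or synonym (663), or from the files (775), and 6743 had none. The probe with the highest mean stood for its gene. All 9 arrays entered one limma 3.58.1 fit (R 4.3.3) with a mean per group, two-sided moderated tests and Benjamini-Hochberg adjustment; the script was tested on simulated data. Of the tested genes, 42 lacked an array because of an outlier spot, 2 of them called. For bounds, an array's dim value was raised to its lowest value well above background.

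Members and the 30 gene lists were chosen with earlier results of these data known. Named genes were Ebf1, the tested EBF1 targets, the 12 highest and 12 lowest called genes measured on all 6 arrays, the 5 largest bounds each way, up to 4 called members per list, and neighbouring groups of 3; promoter examples, neighbouring pairs and list members below 2-fold were chosen after their values were seen. Alternatives covered background, normalization, filters, slide, replicate number, array weights, moderation and leaving out arrays. Unnamed probes and controls were left out of gene counts. Some genes that the rule picks are not reported here.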

Additional observations from a re-analysis of the deposited data

How the results depend on the processing

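Against 324 called genes, normexp background correction with quantile normalization gave 129 (126 of them shared), the authors' deposited values 125 (122 shared), slide as a fixed block 210 over 9 arrays (an alternative chosen after seeing the data) and 1 over the 6 arrays with 1 residual degree of freedom, no fold limit 1235, and an adjusted p under 0.01 with the fold limit 208. Leaving out each array in turn gave 268 to 372 calls. The other settings stayed within 1.5 times of 324. Scaling to the median moved the median of all genes to -0.167 and gave 153 higher and 235 lower genes, 39.4% higher in place of 50.9%. Of 91 called genes that the naming rule picked, Pltp, a lipid transfer protein (1.07), turned to -0.12 with the authors' values, 36 lost the call with normexp and 33 with the authors' values, 34 with slide as a block of 9 arrays, 19 in a fit of only 6 arrays, and 0 with slide as a random block; the causes were not tested. The replicate number does not pair samples: the deviations of same-numbered samples correlated at -0.132, 0.0526 and -0.0588, and with the replicate block 160 higher and 159 lower genes, 319 in all, were called. Leaving out both arrays of the slide that stood apart was also chosen after seeing the data. Signal over background limits 34 higher and 27 lower calls to bounds.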

Other observations

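Among genes that no list held, picked after their values were seen, Igf1, a growth factor, gave -3.06, -5.91 and -3.29 with EBF1wt, where 2 arrays were above background, and -0.06, -0.27 and 0.46 with EBF1ΔC (difference 4.13, limma adjusted p = 0.00478). Sln, a regulator of the calcium pump of muscle, gave -4.67, -7.00 and -4.45, with 2 arrays above background, against -1.19, -0.89 and -1.37 (difference 4.22, limma adjusted p = 0.00244). For both genes EBF1wt replicate 2 was far below the other EBF1wt arrays, and without it the differences were 3.22 for Igf1 and 3.41 for Sln. Csf1, a macrophage growth factor, gave 2.97, 2.37 and 2.81 against 4.40, 4.61 and 4.76 (difference 1.87, limma adjusted p = 0.000203), and 1.70 without that array.

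Probes without a gene name were called far more often in one direction. Of 1942 tested, in a fit of all 20597 kept probes, 51 were higher in EBF1ΔC and 5 lower (limma, the same limits). Of all 20597 probes in that fit, named or not, 457 were called, without a count by direction. Named genes split 165 to 159, but that counts 1 probe per gene in a separate fit. Several unnamed probes may read 1 transcript, so the 2 splits have unlike units. The split of unnamed probes was 22 to 1 with normexp background correction, 21 to 1 with the authors' values and 36 to 3 with slide as a block of 9 arrays. The largest difference that was not called belonged to Rfc5, a clamp loader of DNA replication (3.81, SE 2.53), whose SD over EBF1wt arrays was 6.58, with 2 of these 3 arrays above background.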
